A study of Mus musculus and Rattus norvegicus with 2 samples.

Results

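The miRNAs described here are 9 members of the imprinted Dlk1-Dio3 region: miR-127, miR-434, miR-136, miR-379, miR-411, miR-382, miR-541, miR-409 and miR-410. They were taken by name from the miRBase entry printed with each distinct sequence, with both arms of each hairpin included, and they are 9 of 436 miRNA names in the series. They held 248 reads in the rat library and 1214 reads in the mouse library, in 36 distinct sequences each. The source of the RNA was sperm purified from the caput, the first portion of the epididymis that sperm enter from the testis and where they begin to mature. The rat library came from a Sprague Dawley young adult of 450 g and the mouse library from C57BL/6 at 2 months, both without treatment, and RNA of 18 to 45 nt was selected in both. Each species has 1 library, so no difference below has a replicate check, and intervals in parentheses are exact 95% intervals that cover counting error only. The list was chosen by the read counts of these libraries, so the levels are a description and no test was made.

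The Dlk1-Dio3 region carries one of the largest miRNA groups of placental mammals, and these miRNAs are made from the maternally inherited chromosome. On the paternal copy the control region between Dlk1 and Meg3 is methylated, a mark set in the male germ line. Some of the miRNAs lie antisense to Rtl1, a retrotransposon-derived gene expressed from the paternal copy, and pair with its mRNA in full. The others form a long row of related hairpins downstream, best studied in brain and placenta.

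The mature sequences below carry the findings that follow. They are RefSeq mouse sequences (GRCm38.p6), written 5′ to 3′, with the seed, bases 2 to 8, in capitals.
miR-127-3p: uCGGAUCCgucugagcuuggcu
miR-434-3p: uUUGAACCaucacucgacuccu
miR-136-3p: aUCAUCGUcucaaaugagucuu
miR-379-5p: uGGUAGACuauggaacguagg
miR-411-5p: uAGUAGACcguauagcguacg
miR-541-5p: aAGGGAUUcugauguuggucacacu
miR-409-3p: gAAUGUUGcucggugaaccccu
miR-410-3p: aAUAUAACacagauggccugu
All 18 arms of the 9 hairpins matched a RefSeq entry. The only seed held by more than 1 arm was AUGUAAC, shared by miR-379-3p and miR-411-3p. Of the 248 rat member reads, 219 were listed without a mismatch, and all 219 lay within the mouse hairpin of their miRNA.

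In the mouse genome (GRCm38.p6) the 9 hairpins lie on the plus strand of chromosome 12 within 150.95 kb. Mir127 (chr12:109592846-109592915), Mir434 (chr12:109594506-109594599) and Mir136 (chr12:109595327-109595388) lie within 2.54 kb, antisense to an exon of Rtl1. Mir379 (chr12:109709060-109709125) and Mir411 (chr12:109710175-109710256) follow 113.67 kb further on, outside the bounds of any long gene of GENCODE vM21. Mir382 (chr12:109733771-109733846), Mir541 (chr12:109742409-109742498), Mir409 (chr12:109743158-109743236) and Mir410 (chr12:109743715-109743795) lie within the bounds of the long non-coding RNA Mirg, Mir410 in an exon of it. No rat genome was used here.

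miR-127-3p, the leading member in both libraries, was much lower in rat than in mouse. It had 164 reads in rat and 1148 in mouse, which is 11.2 reads per 1000000 listed reads (rpm) in rat (9.54 to 13.0) and 97.6 rpm in mouse (92.0 to 103.4). The log2 ratio of rat over mouse was -3.12 (-3.37 to -2.89), or 8.70-fold lower in rat. By read number it ranked at 72 of 377 miRNA names in rat and at 19 of 391 in mouse. Its 5p arm, miR-127-5p, had 1 read in rat and 2 in mouse. The 3p arm therefore made up 99.4% of miR-127 reads in rat (96.7 to 99.98) and 99.8% in mouse (99.4 to 99.98).

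The libraries differ in total miRNA as well. Reads under miRBase entries were 1.73% of 14652889 listed rat reads and 4.96% of 11760708 listed mouse reads, and scaling to miRNA reads raises every miRNA ratio by 1.52. The mouse total rests largely on 1 name, miR-10b-5p, with 382162 of 582851 miRNA reads. In rat the most abundant name was miR-10a-5p, with 106311 of 253717. No ratio was taken with these names left out, so the 1.52 need not reflect miRNAs in general. On that scale miR-127-3p was 0.0646% of miRNA reads in rat (0.0551 to 0.0753) and 0.197% in mouse (0.186 to 0.209), a log2 ratio of -1.60. Among the 86 miRNA arms with reads in both libraries and at least 100 over both, 15.1% were lower in rat by 2-fold or more, 51.2% were higher by 2-fold or more, and the median log2 ratio was 1.01. miR-127-3p was the only member arm over that minimum, and its ratio was the fifth lowest of the 86. At a minimum of 10 reads it was the eighth lowest of 155. In a sperm sample, fewer cells that hold a miRNA and less of it per cell cannot be told apart.

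The other 8 members together did not share this difference. They summed to 83 reads in rat and 64 in mouse, or 5.66 rpm in rat (4.51 to 7.02) and 5.44 rpm in mouse (4.19 to 6.95), a log2 ratio of 0.06 (-0.43 to 0.55). As a result miR-127 made up 66.5% of the member reads in rat (60.3 to 72.4) and 94.7% in mouse (93.3 to 95.9), a share that does not depend on the library total. Scaled to miRNA reads, the sum of the 8 is raised by the same 1.52 as every miRNA.

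miR-434, whose hairpin starts 1.66 kb after that of miR-127 and which is also antisense to Rtl1, differed in the other direction. miR-434-3p had 31 reads in rat and 5 in mouse, or 2.12 rpm in rat (1.44 to 3.0) and 0.425 rpm in mouse (0.138 to 0.992), a log2 ratio of 2.20 (0.94 to 4.03). All 31 rat reads were listed without a mismatch, and all 5 mouse reads carried 1 at their last base. For each miR-434-3p read there were 5.29 miR-127-3p reads in rat and 229.6 in mouse. The log2 ratio of these quotients, rat over mouse, was -5.44 (-7.17 to -4.03). Set against miR-411-5p, miR-541-5p and miR-410-3p in the same way, miR-127-3p gave -3.28 (-4.45 to -2.13), -2.46 (-3.73 to -1.15) and -3.54 (-5.30 to -1.91). Against miR-379-5p, with 2 rat reads, it gave -0.11 (-2.27 to 3.10), which shows no relative difference beyond counting error. miR-434-5p had 4 rat reads and 0 mouse reads by name, and a search by sequence found 1 mouse read under another entry. The limit of 3 counts used for 0 reads is 0.255 rpm in mouse and 0.205 rpm in rat.

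miR-136, the remaining member antisense to Rtl1, had 6 reads in rat and 0 in mouse by name. The intervals of 0.150 to 0.891 rpm in rat and 0 to 0.314 rpm in mouse overlapped, and a search by sequence found 1 mouse read of miR-136-3p under the precursor. Of the rat reads, 5 were miR-136-3p and 1 was miR-136-5p. Without miR-127, the antisense members came to 2.80 rpm in rat and 0.425 rpm in mouse, a log2 ratio of 2.60 (1.38 to 4.42).

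**Figure D1:**
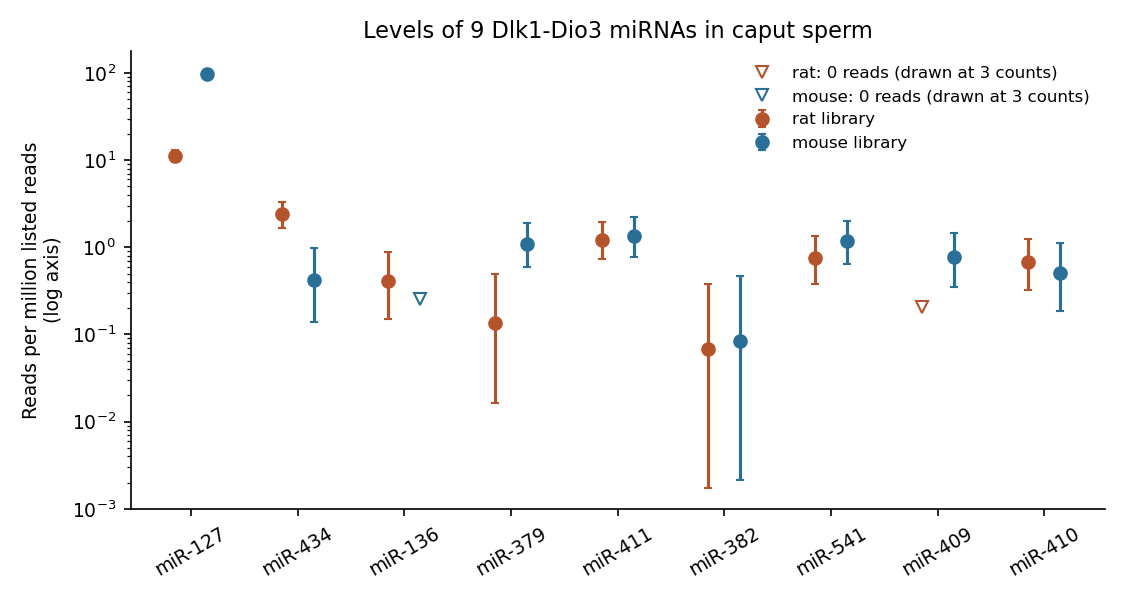
Reads per 1000000 listed reads (log axis) of each miRNA, both arms summed, with the rat library to the left of the mouse library. Bars are exact 95% counting intervals and open triangles stand at 3 counts for a miRNA with 0 reads. miR-127 is at 11.3 rpm in rat and 97.8 rpm in mouse, and the intervals of miR-411, miR-541, miR-382 and miR-410 overlap between libraries.

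The 6 members of the downstream group were sparse in both libraries. They summed to 42 reads in rat and 59 in mouse, or 2.87 rpm in rat (2.07 to 3.87) and 5.02 rpm in mouse (3.82 to 6.47), a log2 ratio of -0.80 (-1.41 to -0.21), whose sign turns on the scale of miRNA reads, where 1.52 is added. miR-411-5p was similar in read number, with 18 reads in rat and 13 in mouse, at 1.23 rpm in rat and 1.11 rpm in mouse. Its log2 ratio of 0.14 (-0.96 to 1.30) leaves differences of more than 2-fold upward within counting error. miR-541-5p had 11 and 14 reads in rat and mouse, with a ratio of -0.65 (-1.95 to 0.58) and miR-410-3p had 10 and 6, with a ratio of 0.37 (-1.18 to 2.16). None of these 3 differences was detectable on the scale of listed reads. On that of miRNA reads miR-411-5p was at 1.65 (0.56 to 2.82), miR-410-3p at 1.89 (0.33 to 3.68) and miR-541-5p at 0.87 (-0.43 to 2.10). The intervals of miR-411-5p and miR-410-3p lie above 0 only through the added 1.52. That scale rests largely on miR-10b-5p in mouse, with 382162 of 582851 miRNA reads, so no higher level in rat is read from it.

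miR-379-5p, whose seed differs from that of miR-411-5p at a single base and whose hairpin lies next to it, had 2 reads in rat and 13 in mouse. That is 0.136 rpm in rat (0.0165 to 0.493) and 1.11 rpm in mouse (0.589 to 1.89), a log2 ratio of -2.75 (-6.21 to -0.87). On the scale of miRNA reads it was -1.23 (-4.69 to 0.64), an interval that spans 0. miR-409 had 0 reads in rat and 9 in mouse, 7 of them from the 3p arm, and the interval of the log2 ratio lay below -1.30. Adding the 1.52 of the miRNA-read scale makes that interval span 0. It also spanned 0 by sequence match, where miR-409-3p had 0 reads in rat and 4 in mouse. A single rat read that holds bases 2 to 19 of miR-409-3p was listed under miR-409b, a name outside the 9. miR-382-5p had 1 read in each library.

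In rat the order of levels was miR-127, miR-434, miR-411, miR-541, miR-410, miR-136, miR-379 and miR-382, with miR-409 at 0. Only miR-127 stood clear of its neighbour, since the interval of miR-434 overlapped that of miR-411 (0.728 to 1.94 rpm). In mouse the order was miR-127, miR-411, miR-541, miR-379, miR-409, miR-410, miR-434 and miR-382, with miR-136 at 0, and again every neighbouring pair below miR-127 overlapped. miR-434 thus followed miR-127 in rat and was the seventh in mouse.

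Of the 18 arms, 8 had reads in both libraries, 4 had none in either, and 6 reached 10 reads over both libraries. Among those 6, miR-434-3p was higher in rat by 2-fold or more, miR-127-3p and miR-379-5p were lower by that much and 3 lay between. Their median log2 ratio was -0.26. Over all 155 miRNA arms at that minimum, 43.9% were higher and 16.1% were lower in rat by that factor, and the median was 0.91. The 5p arm held all reads of miR-541 and miR-382, whereas the 3p arm held all reads of miR-410. miR-411 was read from the 5p arm in all 18 rat reads and in 13 of 16 mouse reads, and the remaining 3 mouse reads were miR-411-3p.

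**Figure D2:**
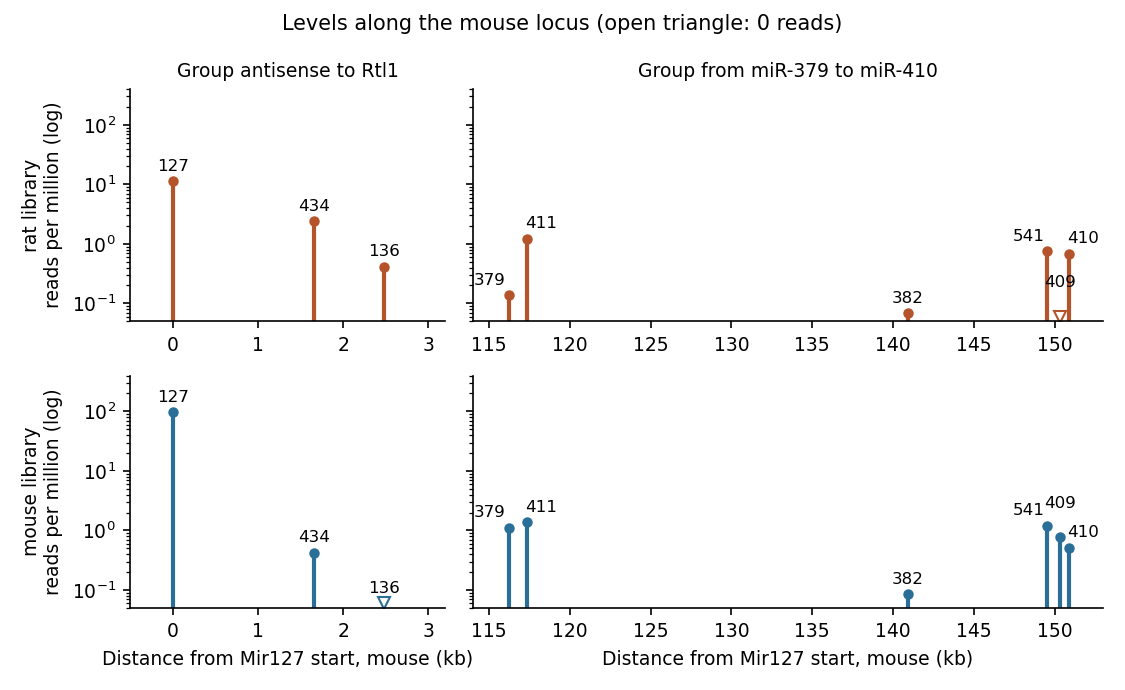
Reads per 1000000 listed reads (log axis) of each miRNA against the distance of its hairpin from the start of Mir127 in the mouse genome, rat library above and mouse library below. In rat the levels along the group antisense to Rtl1 are 11.3, 2.39 and 0.409 rpm, and in mouse miR-127 stands at 97.8 rpm beside 0.425 rpm of miR-434 and 0 reads of miR-136.

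The wider region gave few further reads. Of 46 other miRNAs on a list of the region, 12 had a read in rat, 5 had a read in mouse, 2 of these in both, and 31 had none. They summed to 14 reads in rat and 10 in mouse, with at most 3 reads for any of them in a library. The most frequent were miR-341 with 2 reads in each library, miR-493 with 0 in rat and 3 in mouse, miR-300 with 1 in rat and 2 in mouse, miR-376c with 0 and 2, and miR-496 with 2 and 0. SNORD113, the family of C/D box snoRNAs encoded in tandem copies within the host transcript Rian, had 14 reads in rat and 178 in mouse, a log2 ratio of -3.94 (-4.89 to -3.20). All named snoRNA families without SNORD58 had a ratio of -2.66 (-2.68 to -2.65). The leading SNORD113 read in mouse, of 51 nt with 113 reads, matched the snoRNA gene Gm26922 (chr12:109654627-109654698), within the bounds of Rian.

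Outside the region, among arms with at least 100 reads over both libraries, those nearest to miR-127-3p in log2 ratio over the 2 libraries were miR-99b-5p at -3.83, let-7b-5p at -2.36 and miR-871-3p at -2.27. miR-99b-5p had 35.8 rpm in rat and 510.5 rpm in mouse, and let-7b-5p had 23.4 rpm in rat and 120.5 rpm in mouse. miR-871-3p, of the X-linked testis cluster, had 1.98 rpm in rat and 9.69 rpm in mouse. The other arm, miR-871-5p, had 390 reads in rat and fewer than 100 in mouse.

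Marker miRNAs of germ cells, such as miR-34c, summed to 1021 rpm in rat and 35.0 rpm in mouse. Of the 12 listed, 10 had reads in rat and 7 in mouse, with miR-449c and miR-470 at 0 in rat and miR-449c, miR-743a, miR-743b, miR-471 and miR-463 at 0 in mouse. Epithelial markers came to 370.4 rpm in rat and 222.5 rpm in mouse, with all 6 read in both libraries. Smooth muscle and stromal markers came to 1873 rpm in rat and 851 rpm in mouse, with all 6 read in both libraries. Leukocyte markers were 17.5 and 0.765 rpm, with miR-223 and miR-155 at 0 in mouse. The endothelial miR-126 was 27.0 and 15.7 rpm in rat and mouse, and neuronal markers were 6.89 and 2.47 rpm. Red cell markers were 5.53 rpm in rat, with miR-486 at 0, and 7.14 rpm in mouse, with miR-144 at 0, a log2 ratio of -0.37 (-0.83 to 0.09). The part of these cells in the member levels was not tested.

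The miRBase entry held only some of the miR-127-3p reads, and all reads longer than the 22-nt mature form stood under other entries. Bases 2 to 20 of miR-127-3p were found in 226 rat reads of up to 30 nt, of which 65 (28.8%, 23 to 35.1) stood under a microRNA record of GenBank. In mouse they were found in 1692 reads, of which 552 stood outside the miRBase entry. Of those, 223 were listed on the minus strand of the Rtl1 mRNA record, 325 on the minus strand of other GenBank mRNA records and 4 under a microRNA record. All 231 reads under the Rtl1 record were antisense to it, and 223 of them were miR-127-3p. With these reads counted, miR-127-3p had 15.4 rpm in rat and 143.9 rpm in mouse, and the log2 ratio was -3.22 (-3.43 to -3.02).

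The 3′ end of miR-127-3p also differed between the libraries. Reads that began at base 1 were compared with the mouse hairpin in both libraries, and bases past the longest match to it were taken as an untemplated tail. The leading forms are shown with their tails in capitals.
22 nt, no tail: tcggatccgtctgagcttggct
21 nt, no tail: tcggatccgtctgagcttggc
21 nt with A: tcggatccgtctgagcttggcA
21 nt with AT: tcggatccgtctgagcttggcAT
21 nt with AA: tcggatccgtctgagcttggcAA
22 nt with T: tcggatccgtctgagcttggctT
22 nt with AT: tcggatccgtctgagcttggctAT

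The untailed 22-nt form led in both libraries, with 84 of 223 reads in rat (37.7%) and 534 of 1679 in mouse (31.8%). The form of 21 bases with an added A was the next in mouse, with 298 reads (17.7%), whereas in rat it had 11 reads (4.93%). The same 21 bases without a tail had 35 reads in rat (15.7%) and 223 in mouse (13.3%), so that in mouse the tailed form outnumbered the untailed one. The 22-nt form with an added T had 23 reads in rat (10.3%) and 103 in mouse (6.13%). The AT tail on 21 bases had 7 reads in rat and 112 in mouse, the AA tail on 21 bases had 2 and 63, and the AT tail on 22 bases had 8 and 62.

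In all, a tail was carried by 36.8% of reads in rat (30.4 to 43.5) and by 51.0% in mouse (48.6 to 53.5). Tails that started with A were on 16.1% of reads in rat (11.6 to 21.6) and on 41.4% in mouse (39.0 to 43.8). Those that started with T were on 19.3% in rat (14.3 to 25.1) and on 8.70% in mouse (7.39 to 10.1). The 2 libraries thus differed beyond counting error in the first added base, with A more frequent in mouse and T in rat. Rat reads were set against the mouse hairpin, so a rat genome base that differs from it would count as added. Among reads templated to base 22, 38.2% in rat (30 to 47.0) and 38.3% in mouse (35.0 to 41.6) were tailed. Among those templated to base 21, 39.7% in rat (27.0 to 53.4) and 69.2% in mouse (65.6 to 72.5) were tailed. A T added after base 21 equals the hairpin and counts as templated. The files list at most 2 mismatches per read, so a tail with more than 2 bases that mismatch the record is not seen. Tails of 3 nt, on 4 reads in rat and 38 in mouse, are therefore only partly covered.

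**Figure D3:**
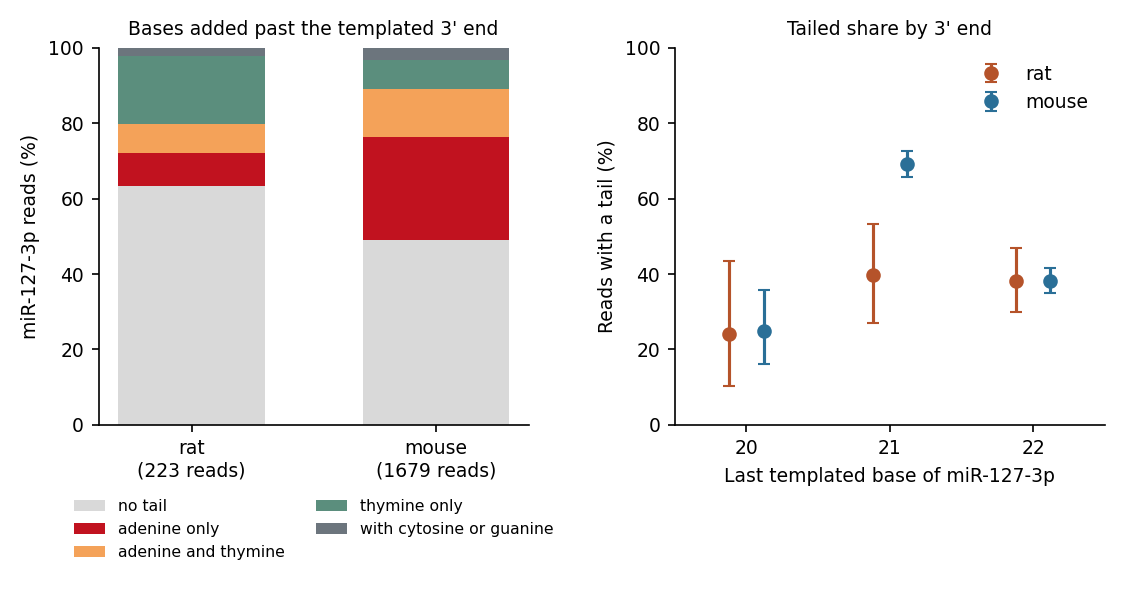
Left, percent of miR-127-3p reads by the bases added past the templated 3′ end, rat and mouse. Right, percent of reads with a tail by the last templated base, with exact 95% counting intervals. Tails of adenine only are on 8.97% of rat and 27.3% of mouse reads, and the tailed share differs at base 21 and not detectably at bases 20 and 22.

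Few reads under miRBase entries ended in an A that mismatched the entry. Within the miRBase entry alone, 7.32% of miR-127-3p reads in rat (3.84 to 12.4) and 27.7% in mouse (25.1 to 30.4) ended in a mismatched A. Of the reads of other miRNAs that entered this count, 252067 in rat and 581483 in mouse, 1.11% and 0.825% did so. These are slightly fewer than all other miRNA reads listed. Among miRNA names with at least 100 reads, miR-127-3p ranked at 5 of 87 in rat and at 1 of 59 in mouse, where the medians were 1.08% and 0.888%. In mouse it was followed by miR-151-3p with 23.9% and miR-378d with 19.8%. This share counts any mismatched final A, reads of near-identical relatives included. For miR-127-3p, an A added past the 22-nt mature form stood under another entry and was not counted. Whether this holds for the other names was not examined, so the ranks and medians may depend on where each entry ends. For the other members the reads were too few for such a share.

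**Figure D4:**
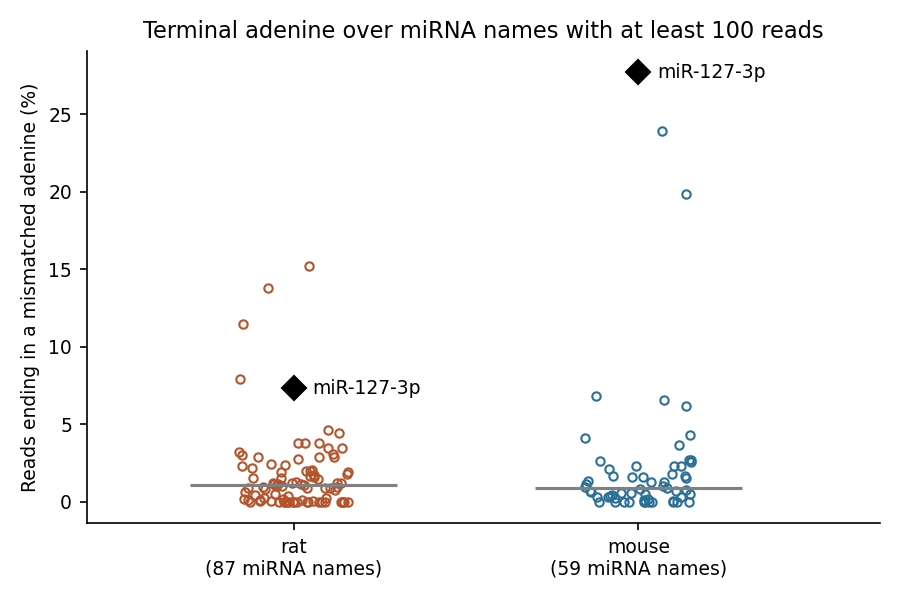
Percent of reads under miRBase entries that end in a mismatched adenine, for each miRNA name with at least 100 reads. Rat is left and mouse right, with the median as a line and miR-127-3p as a diamond. miR-127-3p is at 7.32% in rat and 27.7% in mouse, where it is the highest of 59 names.

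The 5′ ends, which set the seed, were fixed for most members and shifted from the mouse RefSeq start for a few. Of reads holding bases 2 to 19 of miR-127-3p, 98.7% in rat and 99.2% in mouse began at base 1. miR-411-5p had a form that starts 1 base earlier, listed under the precursor and not under the mature entry. Its sequence with the extra base in capitals, seen in 6 rat and 5 mouse reads, reads as follows.
miR-411-5p, 1 base earlier: Atagtagaccgtatagcgtacg
Reads with this start were 8 of 23 in rat (34.8%, 16.4 to 57.3) and 6 of 20 in mouse (30%, 11.9 to 54.3). miR-136-3p began 1 base before the mouse RefSeq start in 5 of 6 rat reads and in the only mouse read, which was listed under the precursor. Of the 5 rat reads under the miR-136-3p entry, 4 had this start without a mismatch, so the rat entry covers the extra base. miR-409-3p began 1 base after it in 3 of 4 mouse reads, so that these reads lack the first base of the printed form. All reads of miR-434-3p, miR-379-5p, miR-541-5p and miR-410-3p that hold bases 2 to 19 began at base 1 in both libraries.

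miR-379-5p and miR-411-5p are known to be edited in their seeds by ADAR enzymes, which change adenosine to inosine, read as G. Positions are counted from 1 at the 5′ end of the mature form. Under the mature entry, the change A5G stood in 3 of 18 miR-411-5p reads in rat (16.7%, 3.58 to 41.4) and in 0 of 13 in mouse (0 to 24.7). Reads that start 1 base earlier stood outside that entry and are not in these shares. A search under any entry also found 3 A5G reads in rat and 0 in mouse, so a share over all miR-411-5p reads would be lower in rat. The edited sequence with the changed base in capitals is the following.
miR-411-5p with A5G, rat: tagtGgaccgtatagcgtacg
In miR-379-5p, A5G stood in 0 of 2 rat reads and in 1 of 13 mouse reads (7.69%, 0.195 to 36.0). No read of either miRNA had C or T at base 5. At the other 5 A bases of miR-411-5p, 0 of 90 bases read in rat and 0 of 65 in mouse were G. The intervals of the 2 libraries overlap, so a difference in editing was not detectable at this depth.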

How the data were processed

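The authors deposited whole, unnormalised read counts per distinct sequence, 1 table per library, per the file headers. The annotation beside a sequence is 1 matched record (miRBase, GenBank, Rfam or piRNA) that differs from it at no more than 2 bases, with positions counted from 0. Bowtie 0.12.7, mm9 and rn5 appear in the submitters' processing notes, without the step each served. How reads were trimmed and filtered was not given in the sources used here. A closing line of the mouse table, a total, was left out, and sequences on the minus strand were turned.

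Members were the entries of the 9 names, without prefix and arm. The members and lists were chosen with earlier results of these data known. Levels are reads per 1000000 listed reads. Ratios are rat over mouse with a pseudocount of 0.5 read and an exact conditional binomial interval. Shares have Clopper-Pearson intervals. Reads are PCR products without molecular identifiers. For 0 reads the limit used is 3 counts. Marker names that differ between the species by a letter were joined. A name without an arm was paired with the more abundant arm left unmatched in the other library. Core matches used bases 2 to 20 of the leading exact form, in reads of up to 30 nt of any entry. Tails were read past base 20 against the mouse hairpin. Their analysis was added after seeing the data. The text names all 9 members, the 5 most frequent other miRNAs of the region and the 3 nearest in ratio outside it. Ratios were tested on counts simulated from the more abundant mouse miRNAs, so the lowest member counts were not covered. Pairing was checked on a small made-up example. Mouse coordinates are from RefSeq and GENCODE vM21, not from the submitters' builds. Long host transcripts were not analysed here. Work was done in Python 3.11.15 with pandas 2.3.3, SciPy 1.17.1 and matplotlib 3.10.9.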

Additional observations from a re-analysis of the deposited data

How the results depend on the processing

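The ratio of the summed members was -2.61 and that of miR-127-3p was -3.12. Both stayed within their counting intervals with the most abundant sequence of each library left out of the total, with the core match, with reads of 20 to 24 nt and with a pseudocount of 1. Per 1000000 miRNA reads they were -1.09 and -1.60, and with reads listed without a mismatch -2.31 and -2.84. Counted as distinct sequences they turned to 0.49 and 0.0052, and so did miR-379-5p, at 0.0052, with counting intervals that span 0. The distinct count is set by rare forms and follows the number of sequences listed, 650877 in rat and 914516 in mouse. At the minimum of 100 reads 1 member arm was at least 2-fold lower in rat, with 2 at a minimum of 10 and 6 with no minimum. Over all miRNA arms compared, 15.1% were that much lower at the minimum of 100 and 16.1% at that of 10. No such share was taken without a minimum. There, both arms of miR-434 and of miR-136 were at least 2-fold higher in rat. The intervals of miR-434-5p and of both miR-136 arms spanned 0. So did those of miR-127-5p, miR-411-3p and miR-409-5p among the lower arms, so the counts without a minimum are not read as a result. Pseudocounts set the fold of arms with 0 reads in a library. The 3p share of miR-127 in mouse was 100% with mismatched reads left out and with the core match, since both mouse miR-127-5p reads carried mismatches. With reads under miRBase entries only, which end at 22 nt, the tailed share of miR-127-3p was 12.4% in rat and 28.1% in mouse, and the share with a tail starting with A was 7.45% and 27.0%. This alternative was chosen after seeing the data, as was joining the 18 miRNA arms whose names differ between the species only by the letter a. That gave 94 arms at the minimum of 100 reads, of which 13.8% were lower and 52.1% higher in rat by 2-fold or more, with miR-127-3p again the fifth lowest. The A5G shares stayed within their intervals with reads of 20 to 24 nt.

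Depth limits the members other than miR-127-3p: 1 read is 0.0682 rpm in rat and 0.0850 rpm in mouse. No paired analysis was possible because each species has 1 library and the labels number no replicates, so no library was left out either.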
